A study of Mus musculus with 6 samples.

Results

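The Toll-like receptor pathway was described in SL4 cells through 10 genes chosen by name, namely the receptors Tlr2, Tlr3, Tlr4 and Tlr6, the adaptors Myd88 and Ticam1, the kinases Irak1, Irak2 and Irak4, and the ubiquitin ligase Traf6. These are 10 of the 53700 genes in the deposited table, each symbol names a single Ensembl identifier there, and all 10 passed the filter of a mean of at least 1 TPM. SL4 is a luciferase-expressing mouse colorectal cancer (CRC) cell line. The pLV-Control group holds 3 libraries of SL4 cells without SEMA6A overexpression, and the pLV-SEMA6A group holds 3 libraries of SL4 cells stably carrying a SEMA6A lentivirus. No independently made pLV-SEMA6A lines are described, so an effect of SEMA6A and a difference between cell lines cannot be told apart. The sources do not say whether the libraries of a group came from separate cultures, so the p-values measure the spread between these libraries, which may be technical.

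Toll-like receptors recognise microbial molecules. TLR2, paired with TLR1 or TLR6, binds bacterial lipopeptides, TLR4 binds lipopolysaccharide, and TLR3 binds double-stranded RNA inside endosomes. Most of these receptors recruit the adaptor MyD88, on which the kinases IRAK4, IRAK1 and IRAK2 assemble and pass the signal to TRAF6, TAK1 and the IKK complex, and so to NF-kB and the MAP kinases. TLR3, and TLR4 after uptake, use the adaptor TRIF (gene Ticam1), which leads through TBK1 and IKKε to IRF3 and interferon. In the intestine the pathway is known for its role in the response of epithelial and immune cells to bacteria.

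Sema6a was listed at 0 TPM in all pLV-Control libraries and at 98.7 to 118 TPM with pLV-SEMA6A, the direction that the labels give. The 7 colon epithelium markers examined were under 1 TPM in every library, and Epcam and Cdx2 were at 0 throughout, although the line is labelled colorectal cancer. Of 8 macrophage and leukocyte markers, 7 were under 1 TPM in every library, and Adgre1, Itgam and Tyrobp were at 0. Their summed level was 1.32 to 2.81 TPM in pLV-Control and 0.87 to 1.76 TPM in pLV-SEMA6A, most of it from Cd68. The summed level was at most 0.22 TPM for 4 T and NK cell markers, 0.2 TPM for 2 B cell markers and 0.15 TPM for 3 endothelial markers in any library. The 4 fibroblast markers summed to 5.01 to 6.38 TPM in pLV-Control and 6.96 to 7.96 TPM in pLV-SEMA6A, but they went both ways. Col1a1 was at 3.33 to 3.80 TPM in pLV-SEMA6A against 1.19 to 1.39 TPM in pLV-Control. Col1a2 was at 0.69 to 1.13 TPM against 0.33 to 0.51 TPM. Pdgfra was at 0.63 to 0.92 TPM against 1.54 to 2.14 TPM, and Dcn overlapped between the groups. In bulk RNA, fewer cells of a type and less RNA per cell cannot be told apart.

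TPM is a transcript abundance scaled by transcript length and by the library total, so levels can be compared between genes, but it keeps no sequencing depth. How many reads lie behind a value is unknown. Log2 fold changes are differences of log2(TPM + 1), pLV-SEMA6A minus pLV-Control, which understates the change of low genes. A gene passed the test at a Benjamini-Hochberg adjusted p under 0.05 by limma over all 12510 genes tested, and was a differentially expressed gene (DEG) if its absolute log2 fold change was also over 0.5.

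Of the 10 genes, 4 passed the test. Myd88 was higher in pLV-SEMA6A, while Tlr3, Ticam1 and Irak1 were lower. Tlr3 was the only DEG, and none of the 10 was a DEG in the higher direction. The other 6 genes, Tlr2, Tlr4, Tlr6, Irak2, Irak4 and Traf6, did not pass. Among all genes tested 47.6% passed, 19.5% higher and 28.2% lower, and 15.9% were DEGs, 5.12% higher and 10.8% lower. The share of 4 in 10 lies near that background. The groups did not overlap for the same 4 genes, and for 58.5% of all genes tested. The median log2 fold change was 0.11 over the 10 genes and −0.06 over all genes tested. With median-centred libraries, the DEGs among all genes split into 1002 higher and 961 lower, against 640 higher and 1347 lower as deposited, and none of the 10 genes changed direction under this scaling or quantile normalization.

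**Figure D1:**
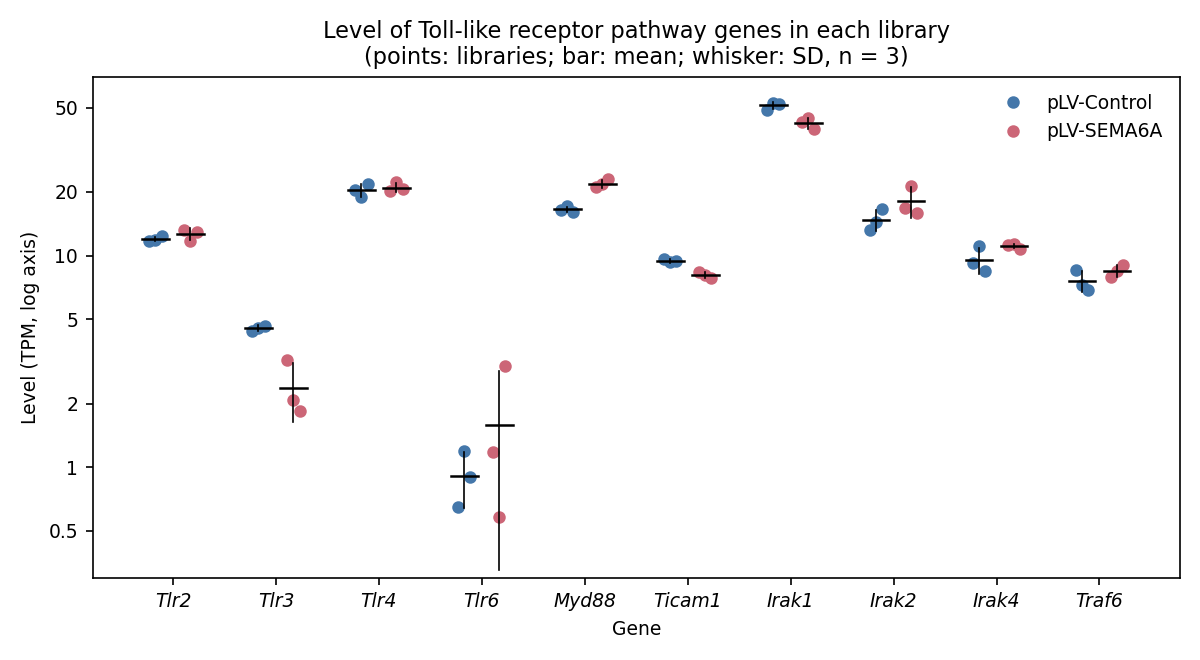
Level of each of the 10 genes in TPM on a log axis, with a point for each of the 3 pLV-Control and 3 pLV-SEMA6A libraries, the mean as a bar and the SD as a whisker. The libraries of the groups do not overlap for Tlr3, Myd88, Ticam1 and Irak1, and Tlr6 lies near 1 TPM except in pLV-SEMA6A replicate 3 at 3.0 TPM.

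Among the receptors, Tlr4 was the most abundant and Tlr3 the only one that passed the test. Tlr4 measured 20.50, 18.98 and 21.87 TPM in the pLV-Control libraries, against 20.16, 22.22 and 20.60 TPM with pLV-SEMA6A. The groups overlapped, with a log2 fold change of 0.04 (95% interval −0.12 to 0.20, limma adjusted p 0.675). Tlr2 measured 11.77, 11.89 and 12.34 TPM in the pLV-Control libraries, against 13.25, 11.68 and 12.96 TPM with pLV-SEMA6A. Its groups also overlapped, since pLV-SEMA6A replicate 2 was the lowest of the 6 libraries. The log2 fold change of Tlr2 was 0.07 (95% interval −0.09 to 0.22, limma adjusted p 0.425).

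Tlr3 measured 4.4, 4.57 and 4.67 TPM in the pLV-Control libraries, against 3.21, 2.07 and 1.84 TPM with pLV-SEMA6A. Every pLV-SEMA6A library lay below every pLV-Control library, and the spread among pLV-SEMA6A was wider. The means were 4.55 ± 0.14 and 2.37 ± 0.73 TPM (SD, n = 3 per group), so the pLV-SEMA6A mean was 0.522 of the pLV-Control mean. This gave a log2 fold change of −0.74 (SE 0.16, limma adjusted p 0.0105), and an exact permutation test, two-sided, gave p = 0.1, which is the lower limit for 3 against 3 libraries. Tlr3 passed with each library left out in turn, with log2 fold changes of −0.91 to −0.62. Tlr3 has 6.10% of its 31-base stretches in common with other genes, chiefly the antisense gene Gm45542, which was at 0 TPM in 5 libraries and 0.93 TPM in pLV-Control replicate 1.

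Tlr6, which forms a receptor with TLR2, measured 0.65, 1.19 and 0.90 TPM in the pLV-Control libraries, against 1.18, 0.58 and 3.0 TPM with pLV-SEMA6A. The pLV-SEMA6A libraries included both the lowest and the highest of the 6 values. The log2 fold change was 0.33 with a wide 95% interval of −0.51 to 1.18 (limma adjusted p 0.466), and it became −0.034 without pLV-SEMA6A replicate 3. Tlr6 has 16.6% of its 31-base stretches in common with other genes, chiefly Tlr1, so its reads could have been divided between these paralogs. Tlr1 was at 0.85 TPM in pLV-SEMA6A replicate 2, where Tlr6 was lowest, and no higher than 0.08 TPM elsewhere. Together the 4 receptors summed to 36.6 to 39.8 TPM in pLV-Control and 36.5 to 38.4 TPM in pLV-SEMA6A. Within that sum, Tlr3 made up 11.7% to 12.5% in pLV-Control and 4.79% to 8.49% in pLV-SEMA6A.

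The adaptors passed the test in opposite directions, Ticam1 less stably than Myd88. Myd88, which carries the signal of most Toll-like receptors and of the IL-1 receptors, measured 16.48, 17.09 and 16.11 TPM in the pLV-Control libraries, against 21.01, 21.85 and 22.91 TPM with pLV-SEMA6A. All pLV-SEMA6A libraries lay above all those of pLV-Control. Means were 16.6 ± 0.50 and 21.9 ± 0.95 TPM (SD, n = 3 per group), so the pLV-SEMA6A mean was 1.32 times the pLV-Control mean. This gave a log2 fold change of 0.38 (SE 0.05, limma adjusted p 0.00132), below the minimum of 0.5 for a DEG. It stayed between 0.35 and 0.48 and passed under all 13 alternatives. The exact permutation p was 0.1.

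Myd88 overlaps the gene Acaa1a on the opposite strand and has 8.93% of its 31-base stretches in common with other genes, chiefly Acaa1a. The sources do not say that counting used strand, so reads from the overlap cannot be assigned to one of them. Acaa1a was at 33.98 to 34.64 TPM in pLV-Control and at 28.03 to 32.93 TPM in pLV-SEMA6A, with a log2 fold change of −0.16 (limma adjusted p 0.0772). Myd88 also overlaps Slc22a14, which lies on the same strand. Slc22a14 was at 1.21 to 4.29 TPM in pLV-Control and 0.96 to 1.04 TPM in pLV-SEMA6A (log2 fold change −0.63, limma adjusted p 0.165).

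Ticam1, which encodes TRIF, measured 9.69, 9.29 and 9.43 TPM in the pLV-Control libraries, against 8.37, 8.11 and 7.86 TPM with pLV-SEMA6A. The groups did not overlap, and the mean went from 9.47 ± 0.20 to 8.11 ± 0.26 TPM (SD, n = 3 each). This gave a log2 fold change of −0.20 (SE 0.06, limma adjusted p 0.0308). This call was lost with any 1 library left out (limma adjusted p of 0.0507 to 0.0877), with the replicate block (0.0793), with no filter (0.0762), with the libraries centred on their median (0.173) and with quantile normalization (0.541). The ratio of Myd88 to Ticam1 was 1.70, 1.84 and 1.71 in pLV-Control and 2.51, 2.69 and 2.91 in pLV-SEMA6A, given here as a description without a test.

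**Figure D2:**
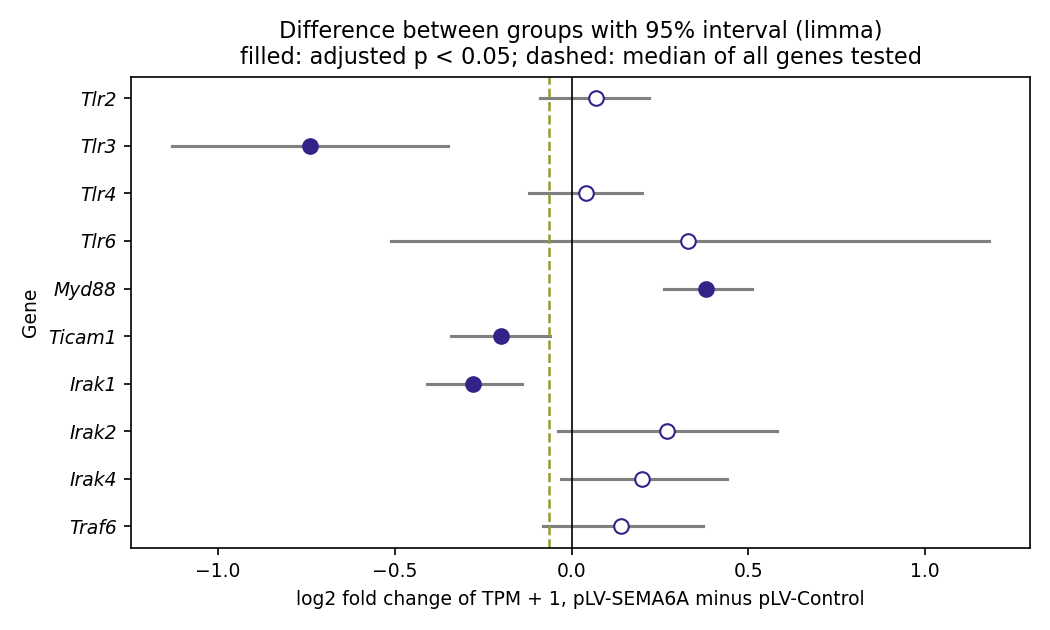
Log2 fold change of TPM + 1, pLV-SEMA6A minus pLV-Control, for each of the 10 genes with its 95% interval from limma. Filled points passed the test at an adjusted p under 0.05, and the dashed line marks the median of all genes tested, −0.06. The intervals of Tlr3, Myd88, Ticam1 and Irak1 exclude 0, and that of Tlr6 is the widest.

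Among the kinases, Irak1 fell, while the values of Irak2 and Irak4 were higher on average without passing the test. Irak1, the most abundant of the 10 genes, measured 49.06, 52.92 and 52.23 TPM in the pLV-Control libraries, against 42.68, 44.55 and 39.54 TPM with pLV-SEMA6A. No pLV-SEMA6A library reached the lowest pLV-Control library. The means were 51.4 ± 2.06 and 42.3 ± 2.53 TPM (SD, n = 3 per group), with a log2 fold change of −0.28 (SE 0.06, limma adjusted p 0.00679). Irak1 passed under all 13 alternatives, with log2 fold changes of −0.32 to −0.18. Irak1 has 3.89% of its 31-base stretches in common with other genes, chiefly Ptk2, which had a log2 fold change of −0.21 (limma adjusted p 0.0430) and kept its call in 1 of 6 fits with 1 library left out and in 3 of the 7 other alternatives.

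Irak2, a kinase that sustains the MyD88 signal, measured 13.20, 14.45 and 16.54 TPM in the pLV-Control libraries, against 16.80, 21.45 and 15.87 TPM with pLV-SEMA6A. The groups overlapped through pLV-Control replicate 3 and pLV-SEMA6A replicate 3. Irak2 had a log2 fold change of 0.27 (95% interval −0.04 to 0.58, limma adjusted p 0.13). Irak2 has 11.0% of its 31-base stretches in common with other genes, chiefly Gm7229, which was at 0 TPM in every library. Gm43912, which overlaps Irak2 on the same strand, was at 1.77 TPM in pLV-SEMA6A replicate 1. It was at 0.2 TPM in pLV-Control replicate 1 and at 0 TPM elsewhere.

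Irak4, the kinase that MyD88 recruits first, measured 9.24, 11.05 and 8.42 TPM in the pLV-Control libraries, against 11.24, 11.29 and 10.80 TPM with pLV-SEMA6A. Only pLV-Control replicate 2 lay within the range of the pLV-SEMA6A libraries. Irak4 had a log2 fold change of 0.20 (95% interval −0.03 to 0.44, limma adjusted p 0.131), and it passed without pLV-Control replicate 2 (0.30, limma adjusted p 0.0256), with median-centred libraries (0.30, limma adjusted p 0.0459) and with quantile normalization (0.34, limma adjusted p 0.0325). Irak4 overlaps Twf1 on the opposite strand and has 6.74% of its 31-base stretches in common with other genes, chiefly Twf1, which rose with a log2 fold change of 0.23 (limma adjusted p 0.00364). The part of Twf1 in the value of Irak4 was not tested.

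Irak1 made up 67.5% to 68.6% of the summed TPM of the 3 kinases in pLV-Control and 57.6% to 60.4% in pLV-SEMA6A. The sum itself overlapped between the groups, at 71.5 to 78.4 TPM and 66.2 to 77.3 TPM. Traf6, the ligase that joins the IRAK kinases to TAK1, measured 8.56, 7.25 and 6.91 TPM in the pLV-Control libraries, against 7.93, 8.42 and 9.0 TPM with pLV-SEMA6A. Its groups overlapped through pLV-Control replicate 1. The log2 fold change of Traf6 was 0.14 (95% interval −0.08 to 0.37, limma adjusted p 0.252), and Traf6 passed only under quantile normalization (0.30, limma adjusted p 0.0395).

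In pLV-Control the order of the mean levels was Irak1, Tlr4, Myd88, Irak2, Tlr2, Irak4, Ticam1, Traf6, Tlr3 and Tlr6, from 51.4 to 0.91 TPM. The libraries of neighbours overlapped for Myd88 with Irak2 and for Irak4 with Ticam1. In pLV-SEMA6A Myd88 stood above Tlr4 and Traf6 above Ticam1, but the libraries of both pairs overlapped.

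The RefSeq promoter table (GRCm38.p6, from 250 bases before to 50 bases after each start) holds 9 of the 10 genes, all except Tlr4. The study's processing notes name mm39, so the coordinates given here belong to the table alone. Both strands were searched for an ISRE core, GAAANNGAAA, to which interferon-activated factors bind, for a GAS core, TTCNNNGAA, to which STAT factors bind, and for an NF-kB core, GGGNNNTTCC or GGGNNNTCCC. An ISRE core was found in 3.44%, a GAS core in 8.30% and an NF-kB core in 10.4% of the 32851 promoters in the table. The Myd88 promoter held an ISRE core at bases −40 to −31 and a GAS core at −46 to −38, which overlap. The Irak1 promoter held an NF-kB core close to its start, and the Tlr2 promoter held overlapping NF-kB cores from base −173 and another across its start. The Tlr3 promoter held an NF-kB core at −211 to −202, which lies in an exon annotated by GENCODE. The Tlr2 core across its start also overlaps such an exon. The upstream Tlr6 start held GAS cores, which overlap a GENCODE exon, and an NF-kB core. The other Tlr6 start held overlapping ISRE cores, and the promoters of Ticam1, Irak2, Irak4 and Traf6 held no match. The following stretches show the motifs, in capitals, for the adaptor that rose, the kinase that fell and Tlr2, a receptor that did not pass. Each is read along the gene's strand from RefSeq and, for Irak1, from the first of its starts.
Myd88, chr9:119340043-119340268, minus strand: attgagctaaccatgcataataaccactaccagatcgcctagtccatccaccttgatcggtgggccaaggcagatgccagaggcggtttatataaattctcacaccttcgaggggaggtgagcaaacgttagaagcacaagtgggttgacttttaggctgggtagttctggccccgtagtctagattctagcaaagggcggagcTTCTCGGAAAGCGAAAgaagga
Irak1, chrX:74023922-74024021, minus strand: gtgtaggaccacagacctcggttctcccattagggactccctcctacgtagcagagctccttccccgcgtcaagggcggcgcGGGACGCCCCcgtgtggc
Tlr2, chr3:83841771-83841858, minus strand: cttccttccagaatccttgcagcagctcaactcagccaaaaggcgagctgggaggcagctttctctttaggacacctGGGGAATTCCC
A match is a description of the letters and does not show that a factor binds.

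**Figure D3:**
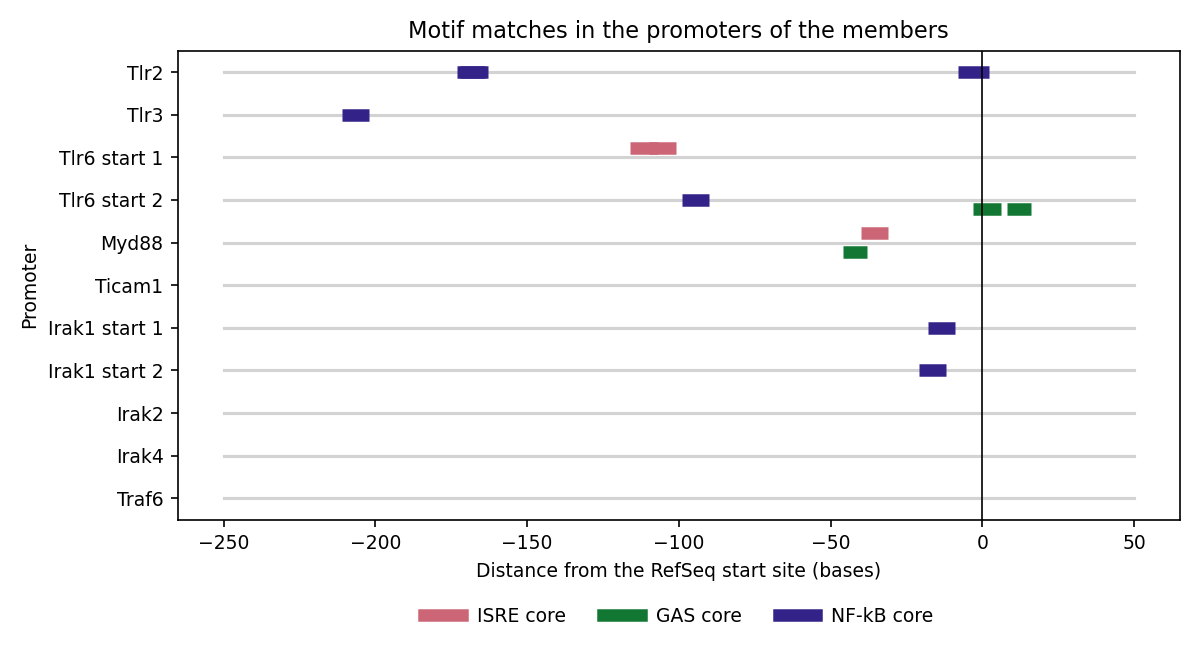
Positions of ISRE, GAS and NF-kB core matches in the promoters of 9 of the 10 genes, in bases from the RefSeq start site, with a line for each promoter from 250 bases before to 50 bases after the start. Myd88 holds an ISRE and a GAS core that overlap, and Ticam1, Irak2, Irak4 and Traf6 hold no match.

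The rest of the pathway was described through 9 lists with 83 genes, of which 56 were tested. Of these, 6 passed higher and 29 lower in pLV-SEMA6A (62.5% in all), where 19.5% of all genes tested passed higher and 28.2% lower. The lists held 14 DEGs, all of them lower, where 10.8% of all genes tested were DEGs in that direction. With the libraries centred on their median the split was 10 higher and 21 lower. Under that scaling 3370 of all 12510 genes tested passed higher and 2474 lower, against 2436 higher and 3523 lower as deposited. All 9 lists were chosen with earlier results of these data known, so their shares are given without a test. The 8 other mouse Toll-like receptors, Tlr1, Tlr5, Tlr7, Tlr8, Tlr9, Tlr11, Tlr12 and Tlr13, were all below the filter, and 6 of them were listed at 0 in every library.

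Of the 9 co-receptors and chaperones, 5 were tested, 1 passed higher and 2 lower. That is 60.0% of those tested, where 47.6% of all genes tested passed. Cd14, the co-receptor that hands lipopolysaccharide to TLR4, measured 11.65, 12.25 and 10.86 TPM in the pLV-Control libraries, against 15.34, 17.30 and 16.69 TPM with pLV-SEMA6A. The groups did not overlap, and the log2 fold change was 0.47 (SE 0.07, limma adjusted p 0.00195). Ly96, which encodes the MD-2 subunit of the TLR4 complex, overlapped between groups, with a log2 fold change of −0.28 (95% interval −0.61 to 0.06, limma adjusted p 0.144).

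Unc93b1, the chaperone that carries TLR3 and other nucleic acid receptors to endosomes, measured 25.49, 22.61 and 26.14 TPM in the pLV-Control libraries, against 11.26, 13.65 and 10.79 TPM with pLV-SEMA6A. It fell with a log2 fold change of −1.0 (SE 0.10, limma adjusted p 0.000369), so the chaperone and Tlr3 were both DEGs in the same direction. Cnpy3, a chaperone of Toll-like receptors, passed with a log2 fold change of −0.17 (limma adjusted p 0.0266), but in only 2 of 6 fits with 1 library left out. Cnpy3 also lost the call with median-centred libraries (−0.077, limma adjusted p 0.23) and with quantile normalization (−0.134, limma adjusted p 0.0584).

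Of 4 other TIR adaptors only Tirap, which links MyD88 to TLR2 and TLR4, was tested. Tirap had a log2 fold change of −0.28 (limma adjusted p 0.0175) and lost the call without pLV-Control replicate 1 or 3 or without pLV-SEMA6A replicate 2 or 3 (limma adjusted p of 0.0548 to 0.0657), with median-centred libraries (−0.18, limma adjusted p 0.0689) and with quantile normalization (−0.14, limma adjusted p 0.131). Ticam2, the adaptor that joins TRIF to TLR4, was at 0.00 to 0.03 TPM. Of 6 receptors of the IL-1 family, which also signal through MyD88, 4 were tested and 2 passed, both lower. The share of all genes tested that passed was 47.6%. Il1r1 did not pass (log2 fold change 0.36, limma adjusted p 0.052), although its libraries were higher in pLV-SEMA6A without overlap. With median-centred libraries and with quantile normalization, 1 gene of this list passed higher and 1 lower. With a pseudocount of 0.1 and with no trend, 1 passed higher and 2 lower. Il1rl1, the receptor for IL-33, measured 38.43, 30.25 and 32.65 TPM in the pLV-Control libraries, against 11.43, 9.84 and 9.29 TPM with pLV-SEMA6A, a log2 fold change of −1.63 (SE 0.11, limma adjusted p 6.94e-05). Il18rap (log2 fold change −0.31) kept its call in 2 of 6 fits with 1 library left out.

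Of 14 genes of the ubiquitin, TAK1 and IKK step, 12 were tested, 2 passed higher and 3 lower, with a median log2 fold change of −0.07. The share that passed, 41.7%, lies near the 47.6% of all genes tested that did. Map3k7, which encodes TAK1, rose by 0.27 on the log2 scale, from 24.3 ± 0.44 to 29.4 ± 1.01 TPM (SD, n = 3 each; SE 0.04, limma adjusted p 0.00292). Ube2n, the ubiquitin-conjugating partner of TRAF6, had a log2 fold change of 0.22. Peli1, a ligase that acts with the IRAK kinases, had −0.38, the TAK1 partner Tab1 had −0.31 and the kinase Ikbkb had −0.24. Map3k7 and Peli1 kept their calls in all 6 fits with 1 library left out, Ube2n and Tab1 in 2 each and Ikbkb in 1. With median-centred libraries 3 genes of this list passed higher and 1 lower. Leaving out 1 library gave 2 to 5 genes that passed, with 2 left without pLV-Control replicate 1 or 3 and 3 left without pLV-Control replicate 2 or pLV-SEMA6A replicate 1 or 3.

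Of 9 genes of the TRIF arm, all tested, 1 passed higher and 6 lower. A share of 77.8% passed, where 47.6% of all genes tested did. Ikbke, the kinase IKKε, measured 8.44, 6.33 and 8.01 TPM in the pLV-Control libraries, against 3.60, 2.95 and 3.26 TPM with pLV-SEMA6A. It fell with a log2 fold change of −1.0 (SE 0.12, limma adjusted p 0.000946). Its relative Tbk1 did not pass, with −0.03 (95% interval −0.24 to 0.17, limma adjusted p 0.788). Irf3, the factor that TRIF activates, fell by 0.30 on the log2 scale, from 39.7 ± 0.86 to 32.0 ± 0.72 TPM (SD, n = 3 each; limma adjusted p 0.00103). Irf7, an interferon-induced relative of Irf3, fell by 3.13 on the log2 scale, from 213 ± 3.12 to 23.6 ± 1.85 TPM (SD, n = 3 each; limma adjusted p 5.01e-07). Without pLV-Control replicate 1 or 2, or when the replicate number was a block, 4 of the 9 genes passed, all lower. With median-centred libraries 1 passed higher and 4 lower. Ikbke, Azi2, Irf3 and Irf7 kept their calls in all 6 fits with 1 library left out. Ripk1 (0.27) kept its call in 3 of those 6 fits, Traf3 (−0.18) in 1 and Tank (−0.09) in 0.

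Of 8 negative regulators, all tested, 5 passed and all were lower. This is 62.5%, where 47.6% of all genes tested passed, 28.2% lower. Tnfaip3, which encodes the deubiquitinase A20 and is itself induced by NF-kB, measured 18.35, 15.11 and 16.04 TPM in the pLV-Control libraries, against 10.79, 9.57 and 12.82 TPM with pLV-SEMA6A, a log2 fold change of −0.54 (SE 0.12, limma adjusted p 0.00948). The log2 fold change was −0.44 for Sigirr, −0.45 for Tnip2, −0.36 for Tnip1 and −0.29 for Cyld. Irak3, the inhibitory member of the IRAK family, was at 1.09 to 1.76 TPM in pLV-Control and 1.2 to 1.67 TPM in pLV-SEMA6A (95% interval of the log2 fold change −0.43 to 0.40). Of 7 kinases of the MAPK arm, 3 passed, and this 42.9% lies near the 47.6% of all genes tested that passed. Map2k3 (0.31) and Map2k4 (0.37) passed higher under all 13 alternatives. Mapk9 (−0.16) passed lower. It kept its call in only 1 of 6 fits with 1 library left out and in 2 of the 7 other alternatives.

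Of 18 genes that the pathway is known to induce, 10 were tested, and 9 of them were DEGs, each lower, where 10.8% of all genes tested were DEGs in that direction. This list was chosen with earlier results of these data known, so the share is a description and not a test. The median log2 fold change of the 10 tested genes was −1.10. The number that passed was 7 with no filter and with quantile normalization, and 7 to 9 with 1 library left out. Ccl7 (−0.79) and Saa3 (−0.62) were the least stable, keeping their calls in 1 and 2 of those 6 fits. Nfkbia, the NF-kB inhibitor IκBα and a direct NF-kB target, measured 47.20, 47.89 and 51.88 TPM in the pLV-Control libraries, against 30.03, 28.98 and 33.74 TPM with pLV-SEMA6A. The groups did not overlap, with a log2 fold change of −0.65 (SE 0.07, limma adjusted p 0.000460). The chemokine Ccl5 fell by 2.94 on the log2 scale, from 533 ± 13.0 to 68.7 ± 6.32 TPM (SD, n = 3 each; SE 0.07, limma adjusted p 1.05e-06). Cxcl10 had a log2 fold change of −1.68 and Ccl2 one of −1.56. Lcn2 had −1.56, at 2.33 to 2.86 TPM in pLV-Control and 0.00 to 0.54 TPM in pLV-SEMA6A, so it passed the filter only through pLV-Control. Many of these genes are also induced by interferon, and the list does not separate that route. Tnf, Il1b, Il6, Ifnb1, Cxcl2, Ccl20, Icam1 and Csf2 were below the filter, with at most 0.99 TPM in any library.

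**Figure D4:**
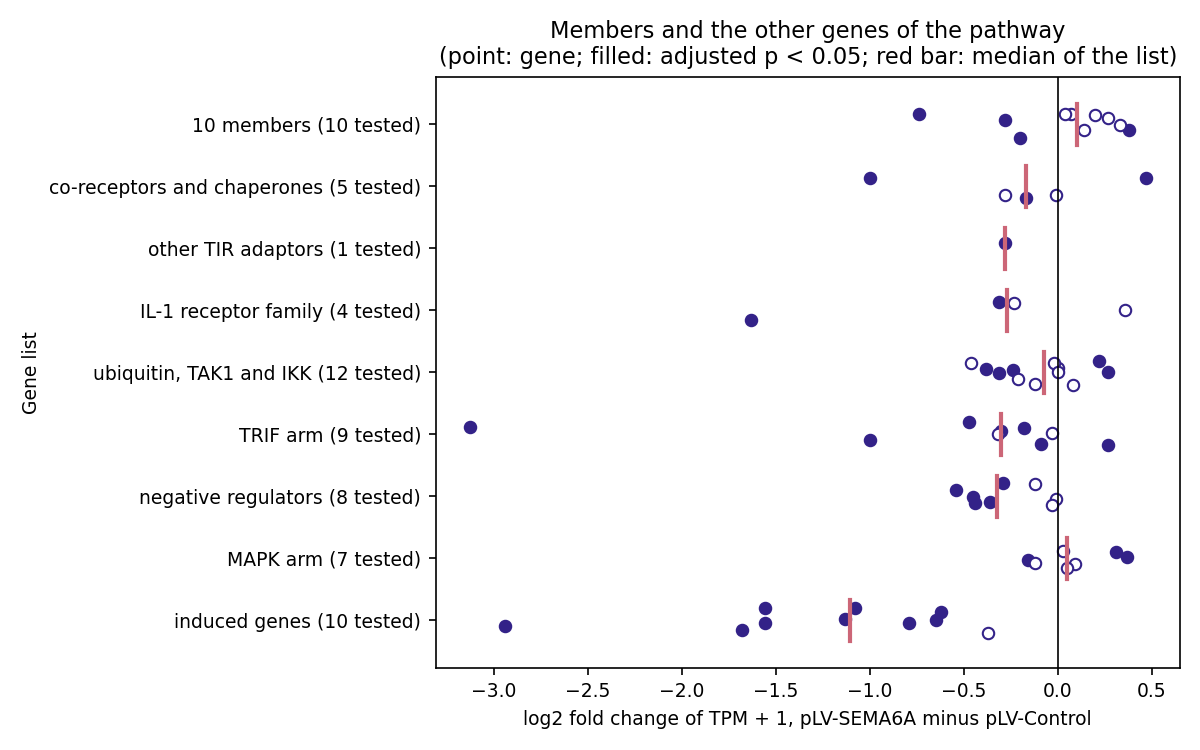
Log2 fold change of TPM + 1, pLV-SEMA6A minus pLV-Control, with a point for each tested gene of the 10 members and of 8 lists of the pathway, filled where the adjusted p was under 0.05, and a bar at the median of each list. The members centre at 0.11 and the induced genes at −1.10.

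Across the 6 libraries, the 5 tested genes whose centred log2 profile was nearest to that of Tlr3 were A430073D23Rik, Rasa4, Tspan13, Rnf31 and Osbpl3, at Euclidean distances of 0.12 to 0.19. Like Tlr3, each was higher in pLV-SEMA6A replicate 1 than in the other pLV-SEMA6A libraries. Their log2 fold changes ran from −0.85 for Rasa4 to −0.64 for Tspan13. These points share libraries and the group difference, and the 5 genes were picked for nearness to Tlr3 over these same values. The likeness therefore follows from the choice and is a description.

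**Figure D5:**
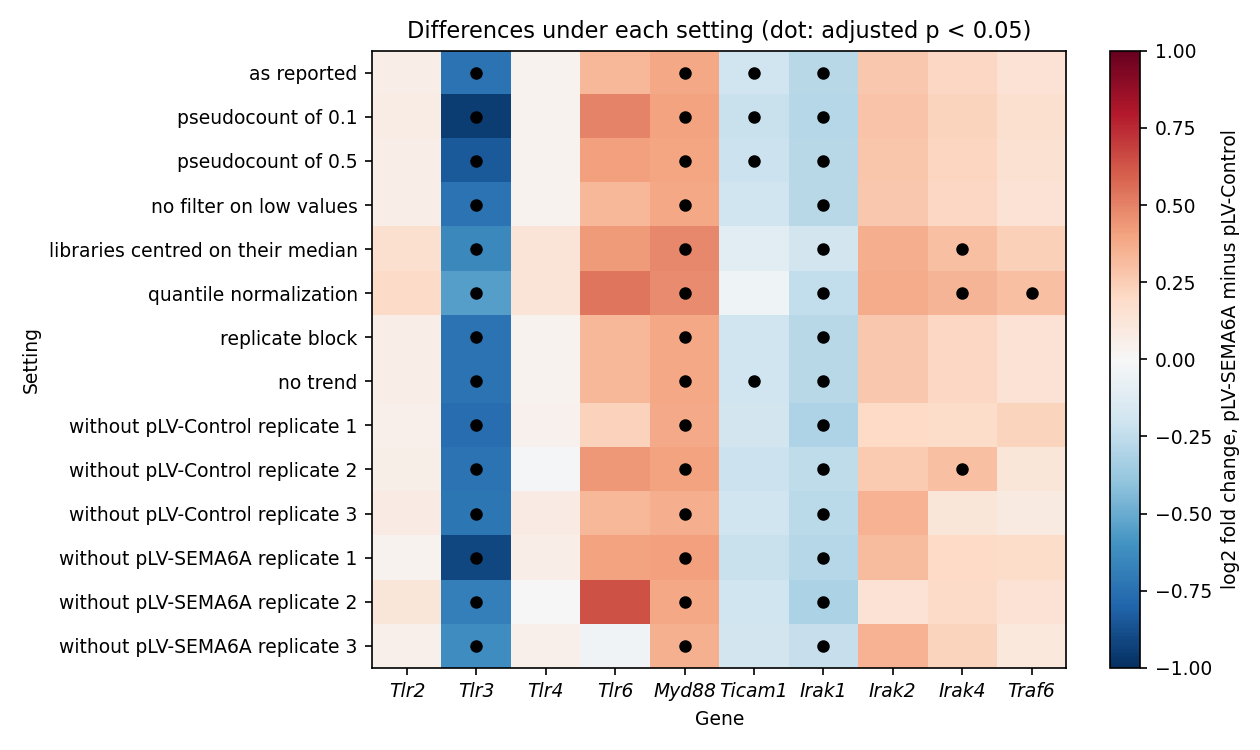
Log2 fold change of the 10 genes, as colour, as reported and under 13 other settings, with a dot where the adjusted p from limma was under 0.05. Tlr3, Myd88 and Irak1 carry a dot in every row, Ticam1 as reported and in 3 of the other rows, Irak4 in 3 rows and Traf6 in 1.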

How the data were processed

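Poly-A mRNA of 3 pLV-Control and 3 pLV-SEMA6A libraries was fragmented, reverse transcribed with random primers and sequenced on an Illumina instrument. The values the authors deposited are TPM per library to 2 decimals, beside a mean per group in 2 columns that were left out. The submitters' processing notes name HISAT, Bowtie2, RSEM and mm39 without roles or versions; the annotation is not given in the sources used here. TPM keeps no depth, so no interval or detection limit for a count was computed. Per library the TPM values added up to between 977400 and 986444, and replicate correlations across genes were 0.967 to 0.978. The mitochondrial gene mt-Co3 had 0.33 TPM in pLV-SEMA6A replicate 2 against 140.6 to 450.1 TPM in every other library, so a value of 0 may be a failed estimate.

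Group differences of log2(TPM + 1) came from limma (version 3.58.1, R version 4.3.3, trend on, group as the only term) for the 12510 genes whose mean reached 1 TPM. For its sequencing data the study's supplement names DESeq2, which needs counts and was not run. The DEG criterion is the one the supplement gives with limma. Exact permutation tests used scipy 1.17.1. On simulated data, a log2 change of 1 was recovered for 86.5%, and a change of 0.5 for 45.5%, of 200 altered genes among 12510 in the pLV-SEMA6A against pLV-Control comparison, with 0 in the wrong direction. Of the genes called, 6.99% at a change of 1 and 3.19% at 0.5 were false, and with the replicate block recovery was 67% and 0%. In the data 47.6% of the genes passed, far more than the 200 altered here. The Benjamini-Hochberg cutoff was therefore stricter in the simulation, and its recovery rates do not carry over to the reported fits. Alternatives were other pseudocounts (0.1 and 0.5), no filter, median centring, quantile normalization, a replicate block, no trend and leaving out each library.

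Shared 31-base stretches and overlapping genes come from GENCODE M21 (GRCm38), which holds 52093 of the identifiers (97.0%). The 10 genes and the lists were chosen with earlier results of these data known. Named from the lists are at most 4 DEGs a list with the largest change and 11 genes set by name; Cnpy3, Il18rap and the other genes named beside them were chosen after their values were seen.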

Additional observations from a re-analysis of the deposited data

How the results depend on the processing

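Of the 10 genes, Tlr3, Myd88 and Irak1 passed under all 13 alternatives in the same direction. The number that passed was 4 as reported, 3 with no filter, 3 with the replicate block, 5 with quantile normalization and 3 to 4 with each library left out. Only the call of Ticam1 was lost under the block (adjusted p = 0.0793 from limma). Without pLV-SEMA6A replicate 2, whose mt-Co3 value stands apart, 3 of the 10 passed. Some values changed sign, and all of these but that of Tlr6 were near 0 as reported. Left-out libraries moved Tlr4 to between −0.013 and 0.084, Tlr6 to between −0.034 and 0.636, Irak3 to between −0.131 and 0.069 and Tbk1 to between −0.093 and 0.041 on the log2 scale. Centring on the median gave 0.081 for Irak3, 0.062 for Tbk1 and 0.003 for Tank, and quantile normalization gave 0.152 for Irak3 and 0.031 for Tbk1. Median centring adds the same amount to every log2 fold change. The library medians of log2(TPM + 1) over the genes tested were 4.305 to 4.312 in pLV-Control and 4.206 to 4.224 in pLV-SEMA6A. The cause of the other sign changes was not tested.

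The pathway lists had 35 genes that passed, 29 with no filter, 26 with quantile normalization, 28 with the replicate block and 25 to 29 with each library left out. Among all genes, 1987 were DEGs, 5959 when no fold change was required and 385 when a log2 change over 1 was. With the replicate number as a block there were 1924 DEGs, and 1905 to 1983 with each library left out. Deviations of same-numbered libraries correlated at −0.0795 to −0.0228, and in no case best with their own number, so replicate numbers were not taken as pairs. TPM gives no read numbers, so the depth behind low values such as those of Tlr6 is unknown.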
